A study of Homo sapiens and Mus musculus with 24 samples.

Results

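UV light joins RNA covalently to proteins that touch it, and an RNA carrying crosslinked protein moves out of the aqueous phase when cells are extracted with phenol. In UPA-seq the RNA left in the aqueous phase of irradiated cells is sequenced and compared with RNA of nonirradiated cells. A fall in reads marks an RNA that was less well recovered, or less well copied into cDNA, after irradiation. The study proposes that bonds formed by UV also hinder reverse transcription, and reads alone cannot tell these apart. The comparison here asks which genes and which groups of genes responded differently to irradiation in the human lines HepG2 and HEK293, once the larger overall response of HepG2 had been allowed for. It used the 12 human samples of the 24 in the study, 6 of each line, and the 16759 genes of 58381 listed that reached a mean of 0.5 CPM (the count scaled to the library total) in the nonirradiated samples of both lines.

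HepG2 is a hepatocellular carcinoma line and HEK293 an embryonic kidney line, each a single cell line standing for its tissue, and no gene was altered in any sample. In each line 3 replicates were irradiated with UV before TRIzol extraction (UPA-seq) and 3 were not (control RNA-seq), and all lysates were heated before chloroform was added. Both lines grew with serum and antibiotics but in different media, and the methods name the kidney line HEK293T while the labels read HEK293. The study describes its replicates as biological, while the labels only number them and do not say how the cultures were separated. All 8 HepG2 markers, such as albumin (ALB) and alpha-fetoprotein (AFP), were higher in every nonirradiated HepG2 than in every nonirradiated HEK293 sample. All 6 HEK293 markers, such as the neurofilament gene NEFL and the kidney transcription factor PAX2, showed the reverse order.

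HepG2 libraries held 36573473 to 53511592 counts and HEK293 libraries 9444707 to 11188033, and HepG2 was sequenced on another instrument model and counted with another featureCounts version, so the line cannot be told apart from these differences. The 10 genes with the most counts took 19.3% to 23.1% of the nonirradiated HepG2 libraries and 39.3% to 40.6% of the irradiated ones, against 9.43% to 10.7% and 21% to 26.8% in HEK293. Libraries that stood apart were HEK293 UV replicate 1, at 26.8% here, and HepG2 nonirradiated replicate 1, in which genes of the mitochondrial genome took 13.3% of counts against 8.16% and 8.58% in the other two. The mitochondrial share was 0.65%, 0.54% and 0.36% in nonirradiated HEK293, 1.65%, 0.65% and 0.62% in irradiated HEK293 and 20.5% to 21% in irradiated HepG2. Values are given below as normalized CPM, counts divided by the sum over the genes tested after TMM scaling within the line (a factor for library composition). That sum was 88.3% to 89.9% of the library total in HepG2 and 95.9% to 98.2% in HEK293. The factors did not put the lines on a common scale, so levels compared between lines are rough. A UV effect is the log2 ratio of UV over nonirradiated. Counts are relative within a library, and fewer cells carrying an RNA cannot be told apart from less RNA per cell.

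Both lines responded widely and mostly to the same RNAs. In HepG2, 6143 genes rose and 6341 fell after irradiation, 74.5% of those tested, and in HEK293 5026 rose and 5239 fell, 61.3% (edgeR quasi-likelihood test, Benjamini-Hochberg adjusted p under 0.05). Across the genes the effects in the lines had a Spearman's ρ of 0.86 and a Pearson's r of 0.83, a description over 16759 genes that share the same libraries. Of 9161 genes called in both lines, 8981 moved the same way and 180 moved in opposite directions, 1.07% of the genes tested. The middle spread of the effects was wider in HepG2, with a median absolute deviation of 0.84 against 0.68 on the log2 scale. Their ratio, k, was 1.24 ± 0.14 (SD, from the spread between pairs of replicates). It was 1.35 from the falling side of the distribution and 1.23 from the rising side.

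Without allowance for k, 1417 genes, 8.46% of those tested, differed in their UV effect between lines, 641 with the higher value in HepG2 and 776 with the lower. The scaled difference, the effect in HepG2 minus k times that in HEK293, was called in 1139 genes, of which 913 were also among the 1417. It was higher in HepG2 for 577 genes (3.44%) and lower for 562 (3.35%), by a median of 0.93 and -1.81 on the log2 scale against 0.08 over all genes. With sums over the genes tested alone, in place of TMM, the split was 165 to 980, and the median over all genes then moved by -0.27. Of the 577 genes, 221 had a positive effect in HepG2 and a negative one in HEK293, 303 were negative in both lines and 53 positive in both. Of the 562, 286 were negative in HepG2 and positive in HEK293, 217 negative in both and 59 positive in both.

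Samples with the same replicate number deviated together in HEK293 but not in HepG2, though in HEK293 replicates 2 and 3 also did so across numbers. With the replicate number of HEK293 as a block the calls rose to 1636 higher (9.76%) and 1015 lower (6.06%). These included all 577 and 561 of the 562. HepG2 nonirradiated replicate 1 was the highest of its 3 replicates in 468 of the 562 lower genes (83.3%), against 44.3% of all genes tested. Without that library 339 genes were called higher and 575 lower, 309 and 521 of them shared with the full set of samples. Leaving out both HEK293 replicate 1 samples gave 872 and 639.

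**Figure D1:**
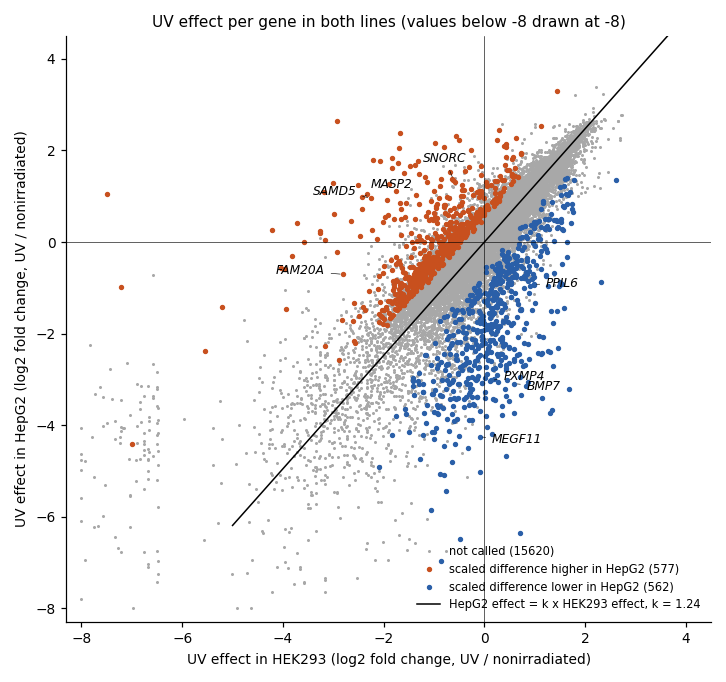
UV effect (log2 fold change, UV over nonirradiated) of 16759 genes in HEK293 (horizontal axis) and HepG2 (vertical axis), with the line for k of 1.24. Orange points are the 577 genes with a scaled difference called higher in HepG2, blue points the 562 called lower, and grey points the remaining genes. The coloured points lie away from the line on either side.

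Of the 164 genes that were called in every fit without 1 sample, had at least 5 CPM in both lines and shared at most 10% of their exon bases with another gene, 90 were higher in HepG2 and 74 lower. The 8 highest were MASP2, SAMD5, FILIP1L, FAM20A, C20orf204, SNORC, ECHDC2 and GABBR1. Their scaled differences ran from 4.0 down to 1.82. All 8 fell in HEK293. In HepG2, 6 of them rose, while FAM20A and ECHDC2 fell, by 0.71 and 0.52.

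MASP2, on chromosome 1 (hg38, 11026523 to 11047233, minus strand), encodes a serine protease that starts the lectin pathway of complement. Its normalized CPM was 9.47, 8.03 and 9.53 in nonirradiated and 17.8, 18.7 and 17 in irradiated HepG2. In HEK293 it was 4.48, 4.23 and 4.29 without and 0.91, 0.48 and 1.02 with irradiation. The groups did not overlap in either line, and all irradiated samples were high in HepG2 and low in HEK293, where they held 6, 4 and 9 counts. The UV effect was 0.98 ± 0.13 (SE) in HepG2 and -2.43 ± 0.24 in HEK293. The scaled difference was 4.0 ± 0.32 (edgeR, adjusted p = 3.61e-05).

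SAMD5, on chromosome 6 (147508927 to 147737547, plus strand), encodes a protein with a sterile alpha motif. It stood at 5.0, 4.11 and 3.97 normalized CPM in nonirradiated HepG2 and at 9.36, 7.82 and 8.22 after UV. HEK293 went from 19.5, 24.3 and 24.0 to 4.25, 4.16 and 5.69. Before irradiation HEK293 had the higher level, and after it HepG2 did. The effects were 0.96 ± 0.15 and -2.26 ± 0.17 (SE), and the scaled difference was 3.75 ± 0.26 (edgeR, adjusted p = 7.3e-06).

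GABBR1, a subunit of the metabotropic GABA receptor, showed similar starting levels in both lines. HepG2 samples held 8.11, 10.3 and 11 normalized CPM without and 19.7, 18.1 and 19.2 with irradiation, and HEK293 samples 11.5, 11 and 12.3 and then 7.74, 6.54 and 7.17. Every irradiated sample lay above the nonirradiated ones in HepG2 and below them in HEK293. The scaled difference was 1.82 ± 0.22 (edgeR, adjusted p = 5.12e-04).

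FILIP1L, a relative of a filamin-binding protein, was an abundant RNA in HepG2 and a scarce one in HEK293. It had 118, 138 and 133 normalized CPM in nonirradiated HepG2 and 175, 173 and 176 after UV. In HEK293 it went from 5.08, 5.75 and 4.93 to 0.91, 1.55 and 1.37. The fall in HEK293 was 2.01 on the log2 scale, against a rise of 0.43 in HepG2. SNORC, a transmembrane proteoglycan of cartilage, and C20orf204 had the same order of levels and rose by 1.36 and 1.31 in HepG2. They fell by 0.62 and 1.14 in HEK293 (edgeR, adjusted p = 0.025 and 0.003 for those falls).

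The other end held MEGF11, the lncRNA ENSG00000283674, INSYN1, PXMP4, MAP7D3, PDZD2, the lncRNA ARRDC3-AS1 and ODF2L, with scaled differences from -4.14 to -2.93. All 8 fell in HepG2, by 2.65 to 4.26 on the log2 scale. In HEK293 only PDZD2 and ODF2L passed the test, and they fell by 0.74 and 0.99. HepG2 nonirradiated replicate 1 was the highest of its group in all 8, and without it their scaled differences were -4.16 to -2.77 with each still called.

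MEGF11, a surface protein with EGF repeats, lies on chromosome 15 (65895079 to 66253747, minus strand). It had 4.28, 3.93 and 3.88 normalized CPM in nonirradiated HepG2 and 0.33, 0.21 and 0.07 after UV, from 10, 5 and 2 counts. HEK293 showed 17.1, 21.1 and 18.5 before and 17, 17.6 and 18.2 after. The HepG2 groups were far apart and the HEK293 groups overlapped. Its effects were -4.26 ± 0.26 (SE) in HepG2 and -0.10 ± 0.17 in HEK293 (edgeR, adjusted p = 0.63), with a scaled difference of -4.14 ± 0.35 (adjusted p = 3.61e-05).

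PXMP4, a peroxisomal membrane protein gene on chromosome 20 (33702754 to 33720319, minus strand), started near the same level in both lines. HepG2 had 11.1, 8.26 and 8.61 normalized CPM and then 1.10, 1.24 and 1.10. HEK293 had 10.3, 10.4 and 9.94 and then 13.2, 10.8 and 9.67, so its groups overlapped. The scaled difference of -3.19 ± 0.27 (edgeR, adjusted p = 3.61e-05) came with an 8.12-fold fall in HepG2.

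MAP7D3, a microtubule-binding protein gene on the X chromosome, behaved alike at a level that was higher in HEK293. Its values in HepG2 were 8.17, 5.72 and 5.31 normalized CPM without and 0.90, 0.86 and 0.68 with UV. In HEK293 they were 44.5, 53.7 and 47.1 without and 41.8, 52.3 and 52.8 with UV. The latter groups overlapped. ODF2L, which encodes a centriolar protein, fell in both lines but from 79.0, 47.4 and 47.6 to 4.17, 2.80 and 2.70 in HepG2. In HEK293 it went from 26.4, 35.8 and 36.7 to 14.3, 18.1 and 17.2. Its scaled difference was -2.93 ± 0.37 (edgeR, adjusted p = 5.59e-04).

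**Figure D2:**
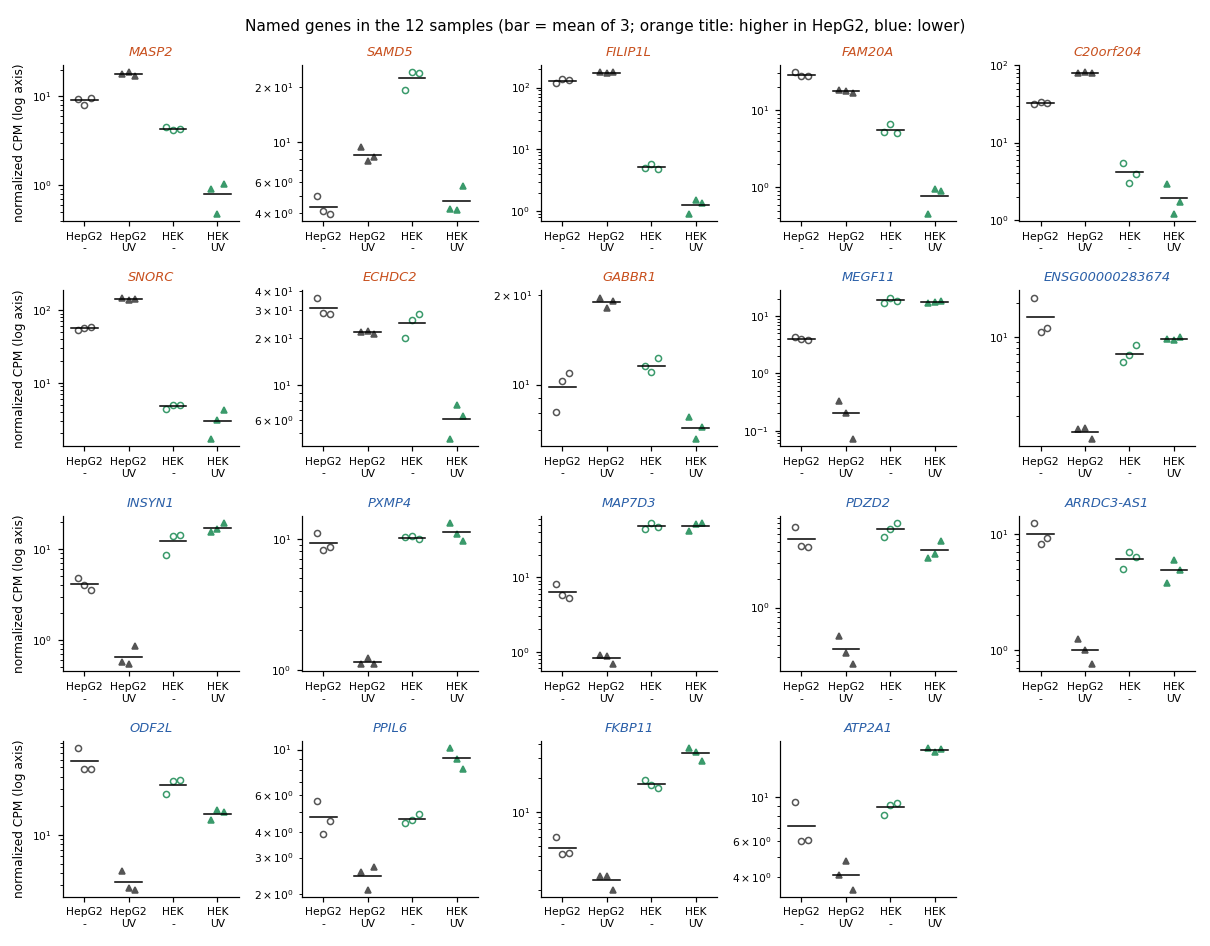
Normalized CPM (log axis, with its own range in each panel) of 19 genes in the 12 samples. They had the largest scaled differences or opposite effects among the 164 genes that met the conditions on calls, level and shared exon bases. Grey symbols are HepG2, green HEK293, open circles nonirradiated, triangles irradiated, and bars the mean of 3; in MASP2 the irradiated samples sit above the nonirradiated ones in HepG2 and below them in HEK293, and in PPIL6 the reverse.

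Genes that changed direction between the lines were few. Among the 180, 94 rose in HepG2 and fell in HEK293 and 86 did the opposite, and 176 of the 180 were also called for the scaled difference. The 32 that met the conditions above were led, by the smaller of their 2 effects, by C20orf204, MASP2, SAMD5, PPIL6, FKBP11 and ATP2A1. PPIL6, a gene of the cyclophilin family, had 5.65, 3.91 and 4.53 normalized CPM in nonirradiated HepG2 and 2.57, 2.1 and 2.70 after UV. In HEK293 it rose from 4.39, 4.57 and 4.85 to 10.2, 9.04 and 8.08. All irradiated HEK293 samples were thus above all others and all irradiated HepG2 samples below.

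FKBP11, a prolyl isomerase of the endoplasmic reticulum, went from 5.96, 4.18 and 4.25 to 2.70, 2.68 and 2.03 in HepG2 and from 19.3, 17.2 and 16.4 to 36.9, 34.1 and 28.1 in HEK293. ATP2A1, a calcium pump of the sarcoplasmic and endoplasmic reticulum, fell by 0.80 in HepG2 and rose by 0.95 in HEK293. Scaled differences of the 3 genes lower in HepG2 were -2.13 ± 0.29, -2.08 ± 0.27 and -1.98 ± 0.30 (edgeR, adjusted p = 7.83e-04, 6.84e-04 and 0.002).

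Among 31 lists of genes with a shared function, 13 had no call for the scaled difference in edgeR. Of their 336 members tested, 20 had an unadjusted p under 0.05, DESeq2 called 5 and limma voom 0. Over all 16759 genes the same counts were 3387, 1708 and 699. Cytosolic ribosomal protein mRNAs rose in both lines, 79 of 79 in each, with a median effect of 2.39 in HepG2 and 1.86 in HEK293. Of these, 15 differed between lines before scaling and none after it, with a median scaled difference of 0.05 (edgeR, adjusted over all genes). Replication-dependent histone mRNAs rose in 41 of 42 in HepG2 and 39 of 42 in HEK293 and had no call after scaling. Proteasome subunits had none of 33, aminoacyl-tRNA synthetases none of 20, p53 targets none of 24, nucleotide excision repair genes none of 27 and immediate early genes none of 26. With the block in HEK293 these 5 lists had 1, 1, 1, 2 and 4 genes called higher, against 9.76% of all genes. They had 0, 0, 1, 2 and 0 called lower, against 6.06%. The transcription factors MYC, SRF and EGR1, of the last list, had scaled differences of 0.58, 1.03 and -1.44 (edgeR, adjusted p = 0.11, 0.18 and 0.37). With the block the adjusted p of MYC was 0.022 and that of SRF 3.85e-04, so their calls depended on it. A p above the threshold does not show that the lines responded alike.

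Small structured RNAs, such as the signal recognition particle RNA RN7SL1 and the 7SK RNA RN7SK, rose in 8 of 8 in both lines, by a median of 2.60 in HepG2 and 2.26 in HEK293. Their scaled differences ran from -0.64 to 0.19 and none was called. RN7SL1, RN7SK and RNU12 share 100% of their exon bases with other genes, and reads there were counted for each. In irradiated HEK293, RN7SL1 had 49730 normalized CPM in replicate 1 against 20720 and 17900 in replicates 2 and 3. The functional lncRNAs MALAT1 and NEAT1 fell strongly in both lines. MALAT1, a lncRNA of nuclear speckles, fell by 2.71 in HepG2 and 2.05 in HEK293, and NEAT1, the scaffold of paraspeckles, by 4.29 and 2.88. Their scaled differences of -0.17 and -0.72 did not pass the test (edgeR, adjusted p = 0.92 and 0.42). In nonirradiated HepG2, MALAT1 had 1451, 487 and 581 normalized CPM and NEAT1 3146, 1202 and 1413, with replicate 1 far above the others. MALAT1 was also widely spread in nonirradiated HEK293, at 555, 1259 and 1130. Without HepG2 nonirradiated replicate 1 the scaled differences were 0.30 and -0.39, again not called, so that of MALAT1 changed sign. OIP5-AS1 was the 1 call among 5 (20%, against 3.44% of all genes), at 0.85 ± 0.20 (edgeR, adjusted p = 0.025). It was called in 3 of the 12 fits without 1 sample.

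Transcripts of the mitochondrial genome had the highest median scaled difference of the 31 lists. In HepG2, 12 of 15 rose and the median effect was 1.38, while in HEK293 6 of 15 rose and the median was 0.07. The median scaled difference was 0.95, against 0.08 over all genes. Less the median over all genes it was 0.87, smaller than its SD of 1.09 between pairs of replicates. No member was called in edgeR, where 3 had an unadjusted p under 0.05. DESeq2 called 1, the block in HEK293 gave 1 and the fit without HepG2 nonirradiated replicate 1 gave 2. The share of counts from this genome differed between the nonirradiated replicates of both lines, as given above, and its part in these values was not tested. MT-ND1, a subunit of complex I, had 282, 116 and 128 normalized CPM in nonirradiated HepG2 and 436, 451 and 479 after UV. In HEK293 it had 22.3, 113 and 42.8 and then 43.9, 68.4 and 65.1. The nonirradiated samples of both lines were thus widely spread, and its scaled difference was 1.38 ± 0.72 (adjusted p = 0.31). MT-CO1, a subunit of cytochrome oxidase, rose in both lines, by 1.82 and 1.97.

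Nuclear genes of the same organelle had medians close to that of all genes. Respiratory chain subunits had a median scaled difference of -0.03 with 1 of 76 called, CYC1 (cytochrome c1), at -0.66 ± 0.16 (edgeR, adjusted p = 0.025). Mitochondrial ribosomal proteins had 2 of 77 called higher in HepG2, MRPL42 at 0.93 and MRPS30 at 0.71, neither of which was called without HepG2 nonirradiated replicate 1.

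Paraspeckle protein genes had 3 of 14 (21.4%) called higher in HepG2 and none lower, against 3.44% and 3.35% of all genes, and all 3 were also called without HepG2 nonirradiated replicate 1. They were CPSF6 and NUDT21, the subunits of cleavage factor I that guide the choice of polyadenylation sites, and RBM12. CPSF6 had 64.9, 74.8 and 74.8 normalized CPM in nonirradiated and 70.8, 65.7 and 76.5 in irradiated HepG2. In HEK293 it had 219, 233 and 252 and then 119, 87.0 and 99.7. The HepG2 groups overlapped and the HEK293 groups did not. The scaled difference was 1.48 ± 0.20 (edgeR, adjusted p = 7.37e-04).

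NUDT21 went from 104, 138 and 132 to 97.0, 96.4 and 96.3 in HepG2 and from 249, 255 and 246 to 106, 118 and 114 in HEK293. It fell in both lines, with a scaled difference of 1.06 ± 0.18 (edgeR, adjusted p = 0.004). RBM12 had 0.76 ± 0.16 (adjusted p = 0.013). At the other end of the list stood TAF15, an RNA-binding protein of the FET family, at -0.92 ± 0.37 (adjusted p = 0.17).

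Genes of the extracellular matrix and adhesion had 4 of 28 called higher in HepG2 and none lower, or 14.3% against 3.44% of all genes, with a median scaled difference of 0.40. The median less that over all genes was 0.32, with an SD of 0.35 between pairs of replicates. With the block in HEK293 there were 12 higher (42.9%, against 9.76% of all genes). Without HepG2 nonirradiated replicate 1 there were 2 (7.14%, against 2.02%). The 4 were the laminin chain LAMC1 and the integrin subunits ITGA2, ITGAV and ITGA6. LAMC1 and ITGA2 were called in all 12 fits without 1 sample, ITGAV in 4 and ITGA6 in 2. Neither ITGAV nor ITGA6 was called without HepG2 nonirradiated replicate 1. LAMC1 went from 180, 158 and 161 to 126, 124 and 126 normalized CPM in HepG2 and from 248, 271 and 256 to 113, 127 and 124 in HEK293. It fell in both lines without overlap, with a scaled difference of 0.95 ± 0.16 (edgeR, adjusted p = 0.003). ITGA2 fell by 0.92 in HepG2 and 1.46 in HEK293.

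Among 12 secreted and plasma proteins that passed the filter in both lines, 2 (16.7%) were called higher in HepG2, against 3.44% of all genes, and without HepG2 nonirradiated replicate 1 there were again 2. VTN, the adhesive plasma protein vitronectin, had 81.1, 87.7 and 89.2 normalized CPM and then 281, 275 and 265 in HepG2. In HEK293 it had 0.77, 1.27 and 1.11 and then 0.15, 0.48 and 0.46. All irradiated samples were high in HepG2 and low in HEK293. VTN held only 9, 15 and 14 counts and then 1, 4 and 4 in HEK293, and shares 13.6% of its exon bases. A2M, the protease inhibitor alpha-2-macroglobulin, had an effect of 0.27 in HepG2 (edgeR, adjusted p = 0.09). It fell by 2.23 in HEK293, where it did not exceed 2.31 normalized CPM and held 16, 27 and 29 counts and then 3, 2 and 5. Nonirradiated HEK293 values enter both the filter and the effect, and their part in these calls was not tested. Scaled differences were 3.49 ± 0.44 and 3.04 ± 0.45 (edgeR, adjusted p = 5.59e-04 and 0.001).

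Zinc finger genes named ZNF, many of which encode KRAB repressors, were called lower more often than higher. Of 413 tested, 25 (6.05%) were lower in HepG2 and 6 (1.45%) higher, against 3.35% and 3.44% of all genes, and the median scaled difference was -0.10. Without HepG2 nonirradiated replicate 1 there were 29 (7.02%) and 3 (0.73%), against 3.43% and 2.02% of all genes. With the block in HEK293 the counts were 47 (11.4%) and 13 (3.15%), against 6.06% and 9.76%. In HepG2, 214 fell and 69 rose, with a median effect of -0.47, and in HEK293 169 fell and 71 rose, with a median of -0.30. ZNF506 had 6.74, 5.48 and 5.17 normalized CPM and then 0.43, 0.82 and 0.78 in HepG2, and 8.96, 9.38 and 9.14 and then 6.99, 5.59 and 6.83 in HEK293. It fell in both lines, and its scaled difference was -2.47 ± 0.33 (edgeR, adjusted p = 7.02e-04). ZNF829 had -1.83 ± 0.29 (adjusted p = 0.003).

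Of 235 solute carriers, 18 (7.66%) were called higher in HepG2 and 7 (2.98%) lower, against 3.44% and 3.35% of all genes, so the share called lower was near that of all genes. The number called higher was 8 (3.40%, against 2.02% of all genes) without HepG2 nonirradiated replicate 1 and 52 (22.1%, against 9.76%) with the block in HEK293. SLC35F5, a member of a family of nucleotide sugar transporters, went from 98.9, 120 and 119 to 77.5, 77.6 and 75 normalized CPM in HepG2 and from 49.3, 48.9 and 62.0 to 18.7, 19.9 and 18.9 in HEK293. Its fall was deeper in HEK293, with a scaled difference of 1.28 ± 0.19 (edgeR, adjusted p = 0.001). SLC25A46, a protein of the outer mitochondrial membrane, had 1.01 ± 0.19 (adjusted p = 0.008).

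Genes hosting snoRNAs had 2 of 19 (11%) called lower in HepG2, against 3.35% of all genes, and none higher. With the block in HEK293 there were 3 lower and 2 higher. SNHG20 had 16.3, 14.6 and 16.2 normalized CPM in nonirradiated HepG2 and 14.9, 16.8 and 15.7 after UV, so the groups overlapped. It rose in HEK293 from 36.5, 25.1 and 24.2 to 106, 82.3 and 78.8. The scaled difference was -2.02 ± 0.25 (edgeR, adjusted p = 5.30e-04), but 24.5% of its exon bases are shared with other genes and reads there were counted for each. SNHG3 rose in both lines, by 1.06 in HepG2 and 1.61 in HEK293, and had -0.94 ± 0.17 (adjusted p = 0.006).

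Single calls stood in several other lists, each with 16 to 34 genes tested. Over all genes 3.44% were called higher and 3.35% lower. EIF1AX, an initiation factor for scanning of the mRNA, rose by 0.33 in HepG2 and fell by 0.66 in HEK293. HNRNPA0, a binder of AU-rich RNA, fell by 0.62 and 1.36, with a scaled difference of 1.07 ± 0.23 (edgeR, adjusted p = 0.016). SRSF12 was the 1 call among 16 SR splicing factors (6.25%), at -1.62 ± 0.30 (edgeR, adjusted p = 0.007). It fell by 1.45 in HepG2, while its groups overlapped in HEK293.

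Nuclear pore genes had 2 of 28 (7.14%) called higher and 1 (3.57%) lower, against 3.44% and 3.35% of all genes. The calls were NUP50 at 0.71, SEH1L at 0.83 and POM121 at -1.53 ± 0.29 (edgeR, adjusted p = 0.007). POM121 shares 18.9% of its exon bases and is one of several near-identical copies, so its counts are uncertain. Among 43 replication genes ORC4, of the origin recognition complex, and RFC2, of the clamp loader, were called lower, at -1.34 and -1.19. This is 4.65%, against 3.35% of all genes. The histone methyltransferase KMT2C was lower, at -0.82 ± 0.21 (adjusted p = 0.031). INCENP of the chromosomal passenger complex was higher, at 0.78 ± 0.20 (adjusted p = 0.036), as were STT3B, of the oligosaccharyl transferase, at 0.59 and CYP51A1, of cholesterol synthesis, at 0.76. CYP51A1 shares 82.2% of its exon bases with other genes. SEH1L, INCENP, STT3B and CYP51A1 were each called in 2 or fewer of the 12 fits without 1 sample, and NUP50 and KMT2C in 6. The remaining lists, glycolysis, cytosolic heat shock chaperones, tubulins and actins, and metallothioneins, are among the 13 without a call. With the block in HEK293, glycolysis had 3 of 16 higher (18.8%). Heat shock chaperones then had 3 of 24 higher (12.5%) and 1 lower (4.17%). Tubulins and actins had 1 of 19 lower (5.26%), and metallothioneins 0 of 3. Over all genes 9.76% were higher and 6.06% lower with that block.

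**Figure D3:**
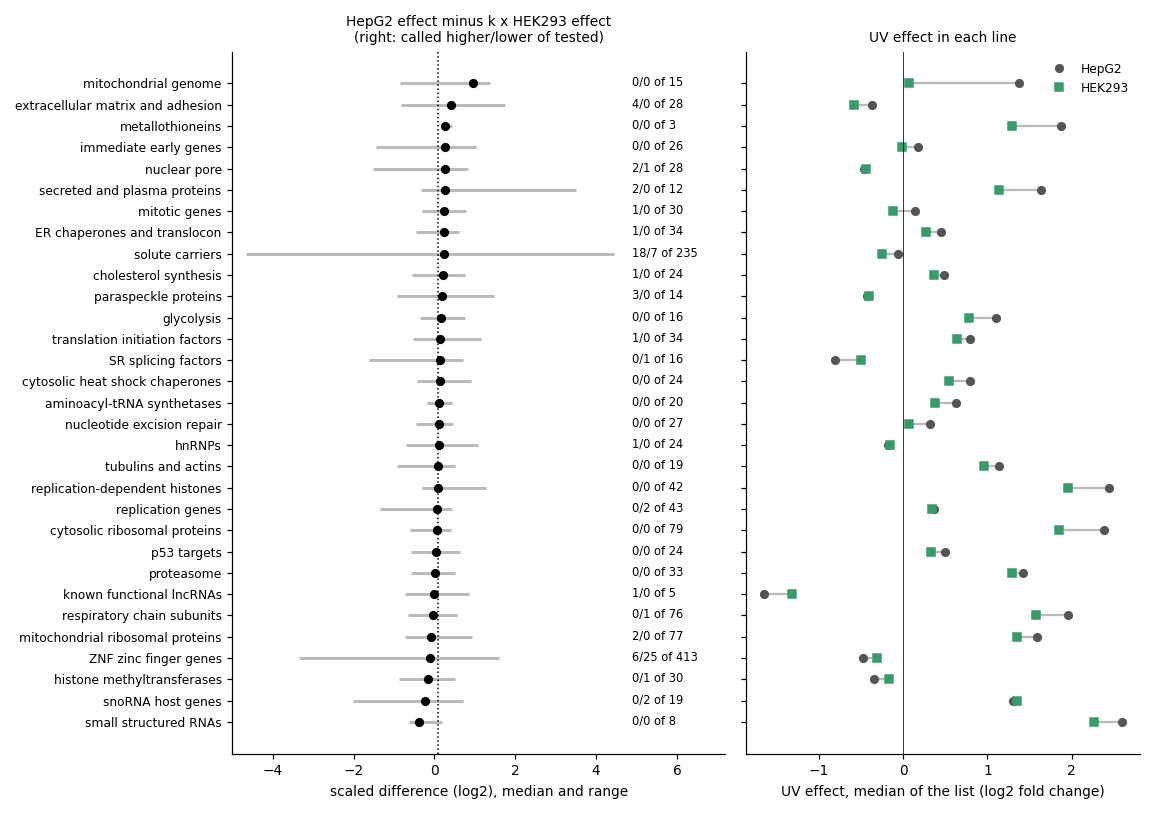
Scaled difference of 31 gene lists (left, median as a point and range as a line, log2, with the median over all genes dotted and the number called higher and lower beside it) and the median UV effect of each list in HepG2 (grey circles) and HEK293 (green squares; right). The mitochondrial genome has the highest median at 0.95 with no member called, and extracellular matrix and adhesion follows at 0.40 with 4 called. Less the median over all genes, these medians had SDs of 1.09 and 0.35 between pairs of replicates.

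Protein-coding genes made up 516 of the 577 higher genes, or 4.10% of the 12595 tested, and 409 of the 562 lower ones, or 3.25%. Among 2869 lncRNAs 45 (1.57%) were higher and 100 (3.49%) lower. The genes called lower had a median of 5.51 CPM in nonirradiated HepG2 and 13.4 in HEK293 among protein-coding genes, against 23.2 and 31.6 over all protein-coding genes. Those called higher had medians of 47.1 and 56.9 CPM.

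Where levels before irradiation differed by 8-fold or more, calls also followed the line in which a gene was more abundant. This pattern was chosen after its values were seen. Of 119 genes over 32-fold higher in HepG2 than in HEK293 (in CPM), 20 (16.8%) had a scaled difference higher in HepG2 and 2 (1.68%) lower, and of 370 genes 8 to 32-fold higher in HepG2, 33 (8.92%) and 14 (3.78%). Of 461 genes 8 to 32-fold higher in HEK293, 71 (15.4%) were lower in HepG2 and 15 (3.25%) higher, and of 96 genes over 32-fold higher, 7 (7.29%) and 4 (4.17%). For 8991 genes within 2-fold the shares were 3.04% higher and 2.69% lower. At 2 to 8-fold the calls over all genes did not follow the line. Of 4618 genes with that lead in HEK293, 148 (3.21%) were higher in HepG2 and 135 (2.92%) lower. Those with at least 5 CPM in both lines had 125 (4.08%) and 55 (1.80%). Of 2104 genes with that lead in HepG2, 84 (3.99%) were higher and 91 (4.33%) lower. Those with at least 5 CPM in both lines had 56 (5.15%) and 35 (3.22%). Unscaled differences had the same order, with 23 higher and 2 lower in the first group and 14 and 82 in the third. Without HepG2 nonirradiated replicate 1 those groups had 17 and 2, and 10 and 63. On the HEK293 side the pattern was weaker in well-expressed genes and did not hold there with the block in HEK293. Of 79 genes 8 to 32-fold higher in HEK293 with at least 5 CPM in both lines, 6 (7.59%) were lower and 2 (2.53%) higher, and with the block in HEK293 8 were lower and 14 higher. The 96 genes over 32-fold higher in HEK293 had 10 lower and 13 higher with the block, and of the 4 of them with at least 5 CPM in both lines 1 was higher and 0 lower. On the HepG2 side, of 106 genes 8 to 32-fold higher in HepG2 with at least 5 CPM in both lines, 16 (15.1%) were higher and 1 (0.94%) lower. The nonirradiated samples enter both the level and the effect, and counts in the line with the low level are few; their part in the pattern was not tested.

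Examples of these groups, chosen after their values were seen, include transcripts that fell in the line where they were scarce. VIL1, the villin of the brush border, had 192, 222 and 220 and then 305, 310 and 314 normalized CPM in HepG2, and 17.1, 22.1 and 17.9 and then 4.40, 5.11 and 4.89 in HEK293. It shares 44% of its exon bases with other genes. NKD1, an inhibitor of Wnt signalling, had overlapping groups in HepG2 at 253 to 267 and fell by 1.26 in HEK293. CACNA2D4 (a calcium channel subunit), LGALS2 (a galectin) and ANGPTL4 (an inhibitor of lipoprotein lipase) rose by 1.24 to 2.05 in HepG2 and had at most 0.69 normalized CPM in any HEK293 sample.

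On the HEK293 side, CAV2, a coat protein of caveolae, had 27.6, 30.9 and 30.7 and then 27.9, 36.4 and 35.6 normalized CPM in HEK293. In HepG2 it fell from 2.77, 1.76 and 1.93 to 0.23, 0.16 and 0.18. BMP7, a bone morphogenetic protein of the developing kidney, rose from 46.2, 35.7 and 36.6 to 70.2, 53.2 and 55.4 in HEK293 and fell from 4.89, 2.44 and 2.90 to 0.37, 0.66 and 0.18 in HepG2. Scaled differences were -3.64 ± 0.35 and -3.83 ± 0.48 (edgeR, adjusted p = 1.10e-04 and 5.59e-04). GOLM1, a Golgi membrane protein, and TPD52L1 fell by 1.52 and 1.77 in HepG2 and rose by 0.34 and 0.82 in HEK293.

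The pattern had exceptions, also chosen after their values were seen. FGF2, a fibroblast growth factor, was more abundant in HEK293, where it fell from 22.9, 26.6 and 29.8 to 12.3, 14.9 and 15 normalized CPM. It rose from 1.51, 1.2 and 1.18 to 2.47, 2.68 and 2.49 in HepG2. PLCG2, a phospholipase of immune receptor signalling, did likewise, with effects of 2.31 in HepG2 and -0.56 in HEK293.

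**Figure D4:**
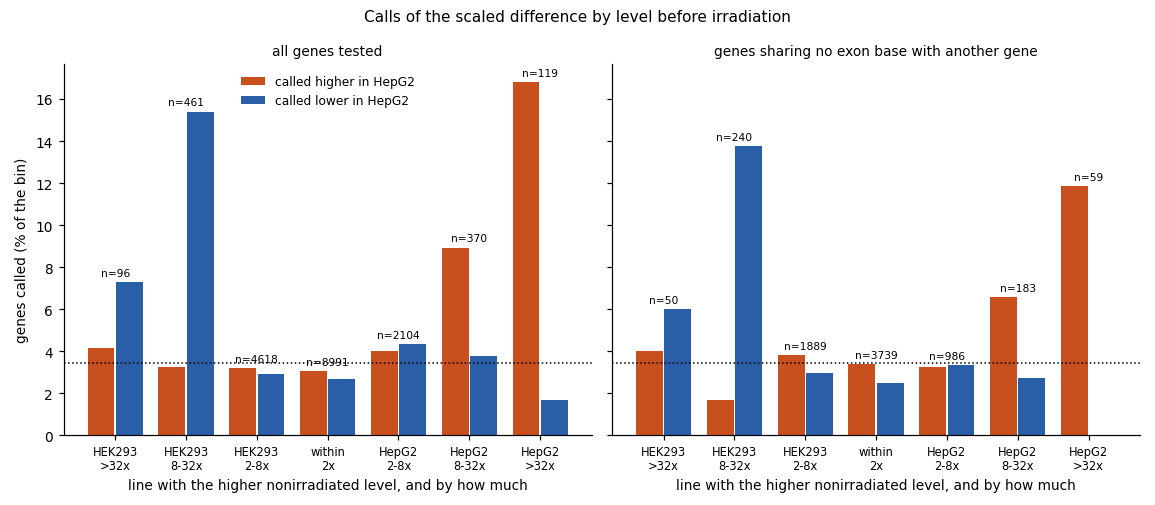
Share of genes called for the scaled difference (%, orange higher and blue lower in HepG2) by how many times higher the nonirradiated level was in one line, for all 16759 genes (left) and for genes sharing no exon base with another (right), with the number of genes above the bars and the overall 3.44% dotted. The blue bar reaches 15.4% where HEK293 was 8 to 32-fold higher, and the orange bar 16.8% where HepG2 was over 32-fold higher.

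Genes called higher in HepG2 had long 3′ UTRs, also seen only after their values were known. Over 12480 protein-coding genes with an annotated 3′ UTR its median length was 1128 bases, over the 512 called higher 2618 and over the 406 called lower 1664. The GC content of the exons had medians of 49.1%, 44.4% and 49.1%, and the length of the coding sequence 1434, 1386 and 1508 bases. In the quintile of genes with the longest 3′ UTRs (2932 bases or more), 231 of 2496 (9.26%) were called higher and 114 (4.57%) lower, against 80 (3.21%) and 62 (2.48%) in the quintile with the shortest. Among genes of at least 5 CPM in both lines the shares called higher were 10.1% and 2.58%.

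This pattern depended on the scaling. Genes with the longest 3′ UTRs fell in both lines, by a median of 0.75 in HepG2 and 0.71 in HEK293, while those with the shortest rose by 0.85 and 0.65. Each of these quintiles held 2496 genes. Without scaling, 138 of the former were called higher in HepG2 and 183 lower, against 155 and 77 of the latter. Over all 16759 genes these counts were 641 and 776. Without HepG2 nonirradiated replicate 1 the scaled counts were 129 and 120 in the longest quintile and 54 and 65 in the shortest. Over all genes they were then 339 (2.02%) and 575 (3.43%). Transcript lengths were taken from the annotated transcript with the longest coding sequence, which need not be the one made in either line.

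Examples with 3′ UTRs of that length, chosen after their values were seen, fell less in HepG2 than in HEK293 even before scaling. NUCKS1, an abundant chromatin protein gene, went from 140, 171 and 164 to 102, 98.7 and 95 normalized CPM in HepG2 and from 1085, 1127 and 1036 to 352, 372 and 362 in HEK293. Its unscaled difference was 0.89 and its scaled one 1.27 ± 0.17 (edgeR, adjusted p = 0.003 and 7.02e-04). RAB21 (a small GTPase of endosomes), SUDS3 (of the SIN3 corepressor), RBFOX2 (a splicing factor), CADM1 (an adhesion molecule) and TMEM248 fell in both lines, by 0.41 to 0.95 in HepG2 and by 1.18 to 1.74 in HEK293. ACSL3 (an acyl-CoA synthetase) and SPRING1 (a regulator of sterol sensing) had overlapping groups in HepG2 and fell by 0.91 and 0.81 in HEK293.

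**Figure D5:**
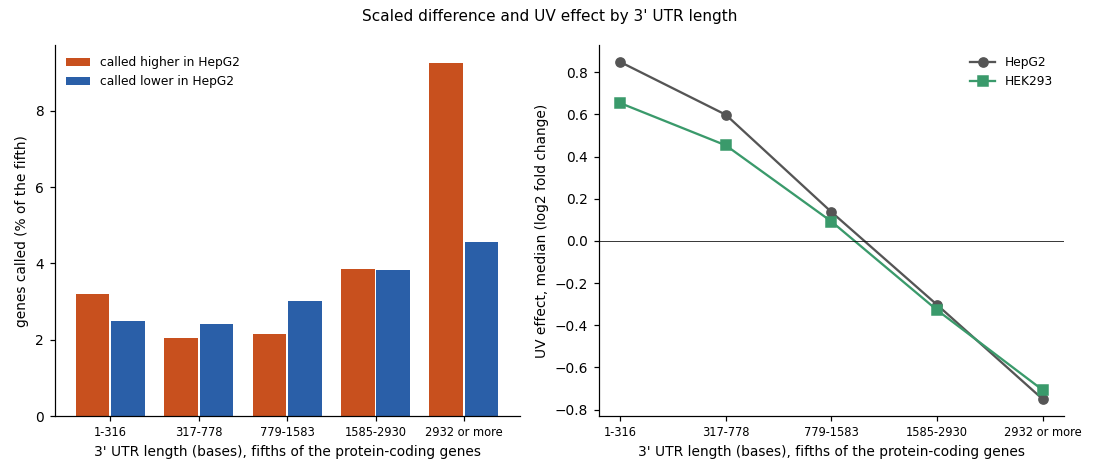
Share of protein-coding genes called for the scaled difference (%, left, orange higher and blue lower in HepG2) and median UV effect in each line (log2 fold change, right) in quintiles of 3′ UTR length in bases. Calls higher in HepG2 reach 9.26% in the longest quintile, where the median effects of both lines are close, at -0.75 and -0.71.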

How the data were processed

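The authors removed ribosomal RNA, made TruSeq libraries (stranded by the labels, RNA version 2 by the methods), mapped reads to hg38 with TopHat2 2.1.1 and made the deposited counts with featureCounts (1.5.3 for HepG2 and 1.6.1 for HEK293) on the exons of GENCODE 28. Reads in the overlap of genes added to the count of every such gene, and no strand option is named, so antisense reads cannot be told apart. The values are raw whole-number counts per gene. Library totals and normalization factors were computed from them.

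Groups came from the sample labels, and a single fit with edgeR 4.0.16 in R 4.3.3 (1 mean per group, TMM within each line, quasi-likelihood test, Benjamini-Hochberg adjustment over the genes tested, threshold 0.05) gave the UV effects, their difference and the difference scaled by k. k is the ratio of the median absolute deviations of the effects and was taken as known. The SE of an effect is its size over the square root of F. Symbols and classes came from GENCODE 44 by Ensembl ID (98.93% of 58381 matched). Named genes are the 8 highest and 8 lowest scaled differences among genes called in the fit and in each of the 12 fits without 1 sample, with at least 5 CPM in both lines, protein-coding or lncRNA, sharing at most 10% of exon bases, then the 6 with the largest opposite effects and, in each of 31 lists, up to 4 genes with the smallest adjusted p and the ends of the range. The members and lists were chosen with earlier results of these data known. Same-numbered replicates deviated together in HEK293 (r = 0.67, 0.39 and 0.49 across genes) and not in HepG2 (r = 0.00, 0.01 and -0.02). In HEK293, nonirradiated replicate 2 also went with UV replicate 3 (r = 0.29), and 3 with 2 (r = 0.27). Replicate 1 went against replicates 2 and 3 (r = -0.54 to -0.45). Replicates 2 and 3 were thus set apart from replicate 1 more clearly than from each other. The pairing comes from the data and the replicate numbers in the labels.

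Alternatives were other scalings, DESeq2 1.42.0, limma 3.58.1, other filters, other definitions of k, HepG2 thinned to the HEK293 depth, blocks and fits without a sample. The code was tested on simulated counts. Summaries used Python with pandas and figures matplotlib.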

Additional observations from a re-analysis of the deposited data

Results flagged for a closer look

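The UV effect of 19 genes differed between HepG2 and HEK293 by a test of the difference itself (edgeR, scaled by k, adjusted p under 0.05). Higher in HepG2 were MASP2 (4.0), SAMD5 (3.75), FILIP1L (2.92), FAM20A (2.77), C20orf204 (2.73), SNORC (2.12), ECHDC2 (1.96) and GABBR1 (1.82). Lower in HepG2 were MEGF11 (-4.14), ENSG00000283674 (-3.92), INSYN1 (-3.25), PXMP4 (-3.19), MAP7D3 (-2.99), PDZD2 (-2.95), ARRDC3-AS1 (-2.93), ODF2L (-2.93), PPIL6 (-2.13), FKBP11 (-2.08) and ATP2A1 (-1.98). All values are scaled differences on the log2 scale. These genes were chosen among those called in each fit without 1 sample, so those fits say nothing about their stability. The 293 values from the other settings kept the direction and the call. They came from the same libraries in which these genes were picked as extremes, so they are no independent support either. Over all 181 genes named by rule or in the text, 189 of 4948 refitted values lost the call, 164 gained one and 0 that were called, there or in the report, changed sign. In HEK293 the irradiated samples of MASP2 held 6, 4 and 9 counts and those of FAM20A 3, 8 and 8, so these folds rest on few reads.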

How the results depend on the processing

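Numbers of called genes below are for the unscaled difference, then for the scaled difference higher and lower in HepG2, beside 1417, 577 and 562 in the report. Sums over the genes tested without a composition factor gave 3015, 165 and 980, and the DESeq2 test 2248 for the unscaled difference and 923 higher. limma voom with weights per line gave 351 higher and 348 lower. A filter of 5 CPM, with 10834 genes tested, gave 615, 265 and 249, and genes sharing no exon base, with 7146 tested, 556, 245 and 217, with 5407 and 4490 UV effects called in HepG2 and HEK293; fewer genes were tested in both. HepG2 thinned to the depth of HEK293, in 1 random draw, gave 697, 238 and 337. In that fit k was 1.26 and the median scaled difference -0.002, against 1.24 and 0.08 in the report. The replicate block in both lines gave 3830, 1537 and 1059, and the block in HEK293 alone, chosen after seeing the data, 3791, 1636 and 1015. Without both HEK293 replicate 1 samples, also chosen after seeing the data, there were 2485 for the unscaled difference and 872 higher. Leaving out 1 sample gave 761 to 2013, 242 to 636 and 348 to 601, the lowest without HepG2 UV replicate 2, HEK293 UV replicate 2 and HepG2 UV replicate 2. The number called higher moved by over 1.5 times without any 1 sample other than HEK293 nonirradiated or UV replicate 1, and the number called lower did so without any 1 HepG2 UV sample, HEK293 nonirradiated replicate 2, or HEK293 UV replicate 2 or 3. The cause of the changes from scaling, tool, thinning, block and left-out samples was not tested. k stayed between 1.18 and 1.35 under all settings. The smallest scaled differences called were 0.51 and -0.55, and in scarce genes a difference of that size may not be detectable at the depth of HEK293.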
